A study of Mus musculus with 8 samples.

Results

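Potassium channel genes were examined in mouse brain neural progenitor cells by RNA sequencing. The members were all rows of the deposited table whose symbol begins with Kcn and a lower-case letter, which gave 95 rows and 94 symbols (Kcnh8 has a pair of rows) among 20793 rows. No antisense or Rik row carried such a symbol. Of the 95 rows, 34 reached 1 FPKM (a fragment count scaled to transcript length and library size) in at least 1 of the 8 libraries and are described here, and 61 stayed below 1 FPKM in every library.

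The 8 libraries came from progenitors of FvB/C57BL/6 strain infected with lentivirus carrying short hairpins and selected with puromycin for 3 days. The hairpins were labelled FUBP1 (a protein that binds single-stranded DNA and RNA and regulates Myc), CIC (capicua, a transcriptional repressor) or non-targeted (NT), and the protocol text describes hairpins for FUBP1 only. Differentiating cells were held for 5 days in neurobasal medium with B27 supplement, and proliferating cells were grown in N2 medium with EGF and bFGF at 20 ng/ml. The differentiating libraries were FUBP1-D, CIC-D and the NT libraries 7 and GFP-D. The proliferating libraries were FUBP1, CIC and the NT libraries TRC and GFP. All 8 libraries thus share infection and puromycin selection, and none is labelled uninfected. There were 2 NT libraries and 1 library of each targeted gene per state. The labels do not say whether the NT libraries were separate cultures, so the p-values rest on a spread between libraries that could be technical. In the fits with state and hairpin label as additive terms, that spread also holds differences of the hairpin effect between states.

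Potassium channels are membrane pores that let potassium leave or enter the cell and so set its resting potential and the shape of its electrical signals. Voltage-gated channels open on depolarization, calcium-activated channels open when internal calcium rises, inward rectifiers pass current near the resting potential, and two-pore domain channels carry background leak. In the brain, astrocytes use inward rectifiers and leak channels to take up potassium released by neurons, while precursor cells carry a different mix of channels.

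The targeted genes were checked first. Fubp1 was at 21.6 FPKM in FUBP1-D, against 24.8 in 7 and 25.4 in GFP-D, and at 34.8 FPKM in FUBP1, against 50.2 in TRC and 12.4 in GFP. The lowest Fubp1 value therefore belonged to a library labelled NT, so FUBP1 and FUBP1-D below mean the libraries labelled so, which goes for every direction drawn from them. Cic was at 25.6 FPKM in CIC-D, against 42.0 in 7 and 35.3 in GFP-D, and at 13.3 FPKM in CIC, against 39.4 in TRC and 33.8 in GFP. Sequencing depth is unknown, and the FPKM values summed to between 426984 and 541608 per library. Summed proliferation markers (7 genes) ranged from 62.7 to 103 FPKM in the differentiating libraries and from 449.9 to 974 FPKM in the proliferating ones. Summed astrocyte markers (10 genes) ranged from 757 to 1139 FPKM and from 284 to 382 FPKM in the same order of states, with Gjb6 below 1 FPKM everywhere. Of the 12 neuron markers, 7 stayed below 1 FPKM in every library, Dcx, Snap25, Syt1 and Rbfox3 among them, while Map2 was at 27.6 to 58.5 FPKM throughout. Tubb3 rose with differentiation, with 0.4997 to 3.68 FPKM in differentiating and 0.0204 to 0.235 FPKM in proliferating libraries (change 1.20, SE 0.37, limma adjusted p = 0.038). A gene had to reach 1 FPKM in 2 libraries to be tested. Tubb3 did so in differentiating libraries only, so its rise is a description. The neurofilament gene Nefl was at 537 FPKM in TRC and 206 in FUBP1 and at no more than 13.7 FPKM in the other libraries.

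Promoter sequences of 4 members are shown for the genes on which the results below turn. Kcnn3 and Kcnn4 are calcium-activated channel genes of 1 family that moved in opposite directions, and Kcnk2 and Kcnip1 rose with differentiation and hold a searched motif. Each line gives 300 bases, from 250 before to 50 after a RefSeq gene start (GRCm38.p6, a different build from that of the expression table), 5′ to 3′ on the gene's strand, with motif matches in capitals. For Kcnk2 and Kcnip1, which have 4 and 3 listed starts, the start whose window holds a match was chosen after the search.
Kcnn3, chr3:89519914-89520213, plus strand: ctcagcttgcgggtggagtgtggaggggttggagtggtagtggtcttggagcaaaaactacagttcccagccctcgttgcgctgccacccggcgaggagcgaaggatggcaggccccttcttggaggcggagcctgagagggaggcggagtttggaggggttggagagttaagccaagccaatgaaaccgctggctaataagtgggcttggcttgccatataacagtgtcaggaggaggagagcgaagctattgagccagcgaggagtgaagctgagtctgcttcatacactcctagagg
Kcnn4, chr7:24370013-24370312, plus strand: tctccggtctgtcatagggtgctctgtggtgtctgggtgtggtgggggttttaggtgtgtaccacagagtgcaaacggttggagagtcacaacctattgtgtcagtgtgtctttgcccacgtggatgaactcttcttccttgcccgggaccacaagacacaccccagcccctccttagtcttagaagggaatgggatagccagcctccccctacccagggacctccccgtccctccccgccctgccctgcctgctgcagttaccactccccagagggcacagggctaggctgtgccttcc
Kcnk2, chr1:189344143-189344442, minus strand: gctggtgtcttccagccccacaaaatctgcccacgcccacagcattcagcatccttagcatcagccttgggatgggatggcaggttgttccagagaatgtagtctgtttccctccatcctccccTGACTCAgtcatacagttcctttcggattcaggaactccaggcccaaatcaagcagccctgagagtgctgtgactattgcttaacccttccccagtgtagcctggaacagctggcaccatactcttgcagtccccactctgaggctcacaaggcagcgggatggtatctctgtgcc
Kcnip1, chr11:33680633-33680932, minus strand: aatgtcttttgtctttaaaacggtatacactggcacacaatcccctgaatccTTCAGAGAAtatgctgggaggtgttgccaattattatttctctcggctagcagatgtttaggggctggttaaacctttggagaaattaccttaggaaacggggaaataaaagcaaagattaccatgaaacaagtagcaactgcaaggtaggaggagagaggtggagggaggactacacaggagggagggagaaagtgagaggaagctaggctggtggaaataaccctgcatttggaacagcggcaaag

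The motifs were the AP-1 letters TGANTCA and the STAT letters TTCNNNGAA, each of which reads the same on both strands, and neither match shown overlaps one of the other motif. The Kcnk2 window holds 1 AP-1 match and the Kcnip1 window 1 STAT match. Neither set of letters occurs in the Kcnn3 and Kcnn4 windows, which hold 11 and 6 CpG dinucleotides, against a median of 7 over all promoters. Sequences were found for 25 of the 34 described members, with 43 promoters. AP-1 letters occurred in 3 of these 43 promoters (6.98%) and in 7.81% of all 32851 promoters, and STAT letters in 3 of 43 (6.98%) and in 8.30% of all. The shares among potassium channel promoters were thus close to those of all promoters.

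Most potassium channel genes stayed below 1 FPKM in every library, and a small number carried most of the signal. Of the 61 rows below 1 FPKM, 7 were listed at 0 in every library (Kcna3, Kcna10, Kcne1, Kcng3, Kcnj1, Kcnk16 and Kcnv1), 28 peaked under 0.1 FPKM and 26 peaked between 0.1 and 1 FPKM. The 7 of 95 rows at 0 compare with 4069 of 20793 rows of the whole table. Just inside the limit were Kcnj2 (highest value 1.03 FPKM, in 7) and Kcnj12 (1.18 FPKM, in FUBP1). Just outside it were Kcnk4 (0.968), Kcnh3 (0.906), Kcnu1 (0.902) and Kcnrg (0.886 FPKM). By role, 14 of 41 voltage-gated pore genes, 5 of 13 of their auxiliary subunits, 4 of 6 calcium-activated pore genes, 1 of 4 BK auxiliary subunits, 6 of 15 inward rectifiers, 4 of 14 two-pore domain channels and 0 of 2 sodium-activated channels reached 1 FPKM in a library. The pore gene of the BK channel, Kcnma1, peaked at 0.166 FPKM, while its auxiliary subunit Kcnmb4 peaked at 23.2 FPKM.

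Between 20 and 26 members reached 1 FPKM in a differentiating library and between 15 and 19 in a proliferating one. As a share of the 95 rows this was 21.1% to 27.4% and 15.8% to 18.9%, with 20% in GFP, while 53.6% to 55.4% and 51.5% to 53.3% of all rows reached 1 FPKM. The inward rectifier Kcnj10 was the highest member in every library except FUBP1, where Kcnn4 led at 54.5 FPKM. The heat map of levels by library shows these few strong rows.

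**Figure D1:**
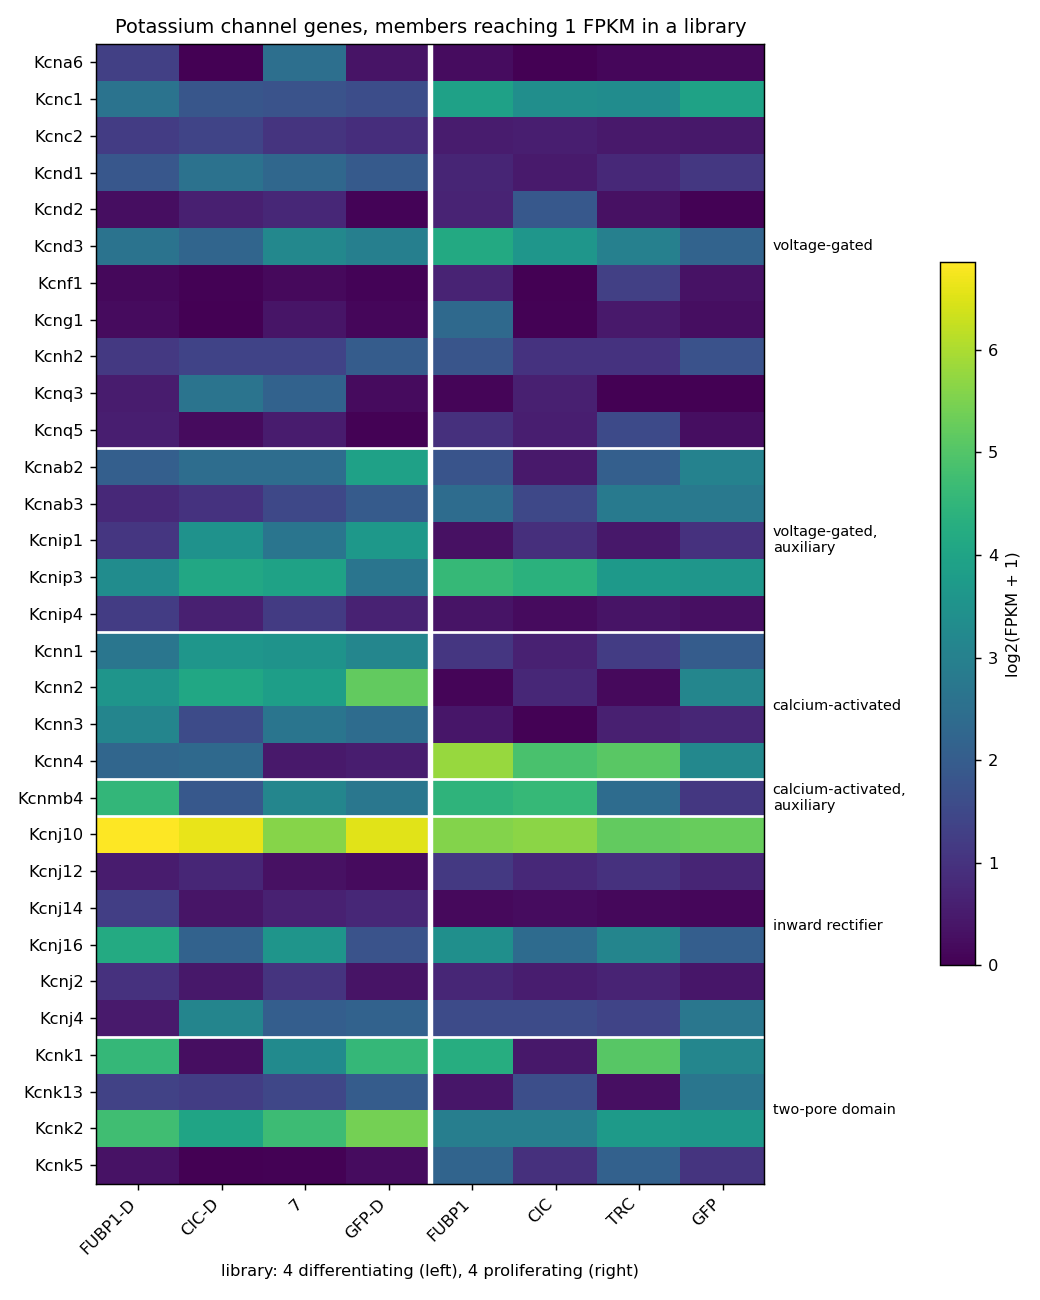
Levels of 31 of the 34 potassium channel genes that reached 1 FPKM in any library, as log2(FPKM + 1) in colour, with genes in rows grouped by role and libraries in columns (differentiating left, proliferating right). Kcnj10 is bright in all 8 libraries, Kcnn4 is brighter right of the white line, and Kcnk1 is dark in both CIC libraries.

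The first comparison asked which potassium channel genes differ between differentiating and proliferating cells over the 3 arms. Of the 27 members that reached 1 FPKM in 2 libraries or more, 10 rose, 4 fell and 13 did not pass the test (limma with state and hairpin label as additive terms, adjusted over 11968 rows). The called share over all rows was 38.8% (21.2% higher and 17.7% lower), against which the 10 and 4 of 27 are to be read. The median change of the 27 was 0.62 on the log2(FPKM + 1) scale, against 0.088 over all rows. This gap depended on the filter. The median was 0.197 against 0.097 over all rows for the 34 members reaching 1 FPKM in any library. With no filter on low values it was 0.0070 for 88 members, against 0.022 over all rows. The filter on 2 libraries favours differences. Of the 27, 7 were below 1 FPKM in every proliferating library (among them Kcna6, Kcnc2, Kcnip1, Kcnip4, Kcnn3 and Kcnq3). Kcnk5 was below it in every differentiating library, so these 8 had to differ to be tested and the counts are a description. The 4 values of a state did not overlap those of the other state in 12 of the 14 called members, and overlapped in Kcnj10 and Kcnab3. Over all rows the states did not overlap in 38%, with the differentiating libraries higher in 20.1% and lower in 17.8%, and over the 27 members they were higher in 10 and lower in 3. The summed proliferation and astrocyte markers given above moved with state as well, and their part in these changes was not tested. In bulk RNA, fewer cells of a type and less RNA per cell cannot be told apart.

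**Figure D2:**
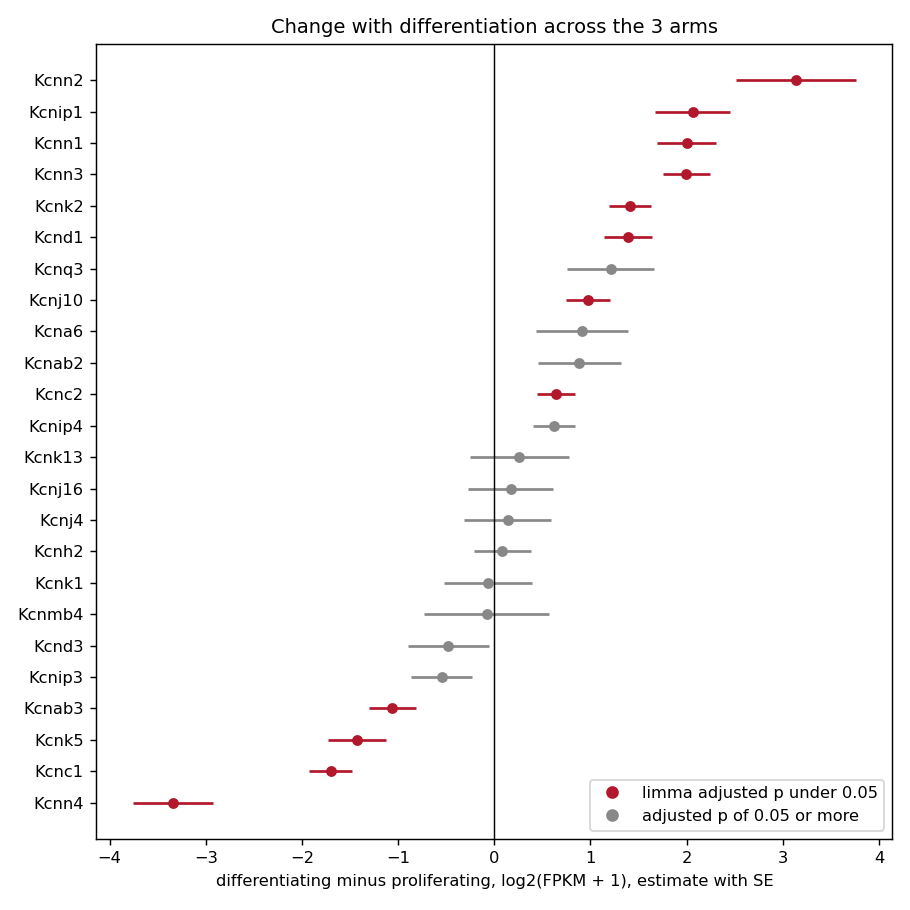
Change with differentiation of 24 of the 27 tested potassium channel genes, as the limma estimate (differentiating minus proliferating) with its SE on the log2(FPKM + 1) scale. Red points passed an adjusted p of 0.05, with Kcnn2 furthest right at 3.14 and Kcnn4 furthest left at -3.34.

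The clearest pattern lay within the Kcnn family, whose channels open when calcium binds their calmodulin subunit. The small-conductance genes Kcnn1, Kcnn2 and Kcnn3 rose and the intermediate-conductance gene Kcnn4 fell. Kcnn4 (chromosome 7, 25155282 to 25170231, mm9), which encodes a channel known from activated lymphocytes and dividing cells, was at 3.80 FPKM in FUBP1-D, 4.03 in CIC-D, 0.388 in 7 and 0.463 in GFP-D, against 54.5 in FUBP1, 28.7 in CIC, 33.5 in TRC and 8.11 in GFP. Every differentiating library lay below every proliferating one, and the NT library GFP was the lowest of the proliferating set. The change, on that log2 scale, was -3.34 (SE 0.42, limma adjusted p = 0.0017).

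Kcnn2 (chromosome 18, 45719808 to 45845537), a small-conductance channel that in neurons shapes the pause after an action potential, was at 11.003 FPKM in FUBP1-D, 16.03 in CIC-D, 13.2 in 7 and 36.2 in GFP-D, against 0.0614 in FUBP1, 0.696 in CIC, 0.137 in TRC and 7.83 in GFP. Both libraries named GFP were the highest of their state. Its change was 3.14 (SE 0.63, limma adjusted p = 0.0083). Kcnn3 (chromosome 3, 89324086 to 89476416) was at 7.645 FPKM in FUBP1-D, 1.99 in CIC-D, 5.31 in 7 and 4.32 in GFP-D, against 0.323 in FUBP1, 0.0259 in CIC, 0.530 in TRC and 0.651 in GFP, a change of 1.996 (SE 0.24, limma adjusted p = 0.0016). The library labelled CIC was the lowest in both states. Kcnn1 (chromosome 8, 73365948 to 73380907) was at 5.41 FPKM in FUBP1-D, 11.04 in CIC-D, 10.5 in 7 and 7.86 in GFP-D, against 1.12 in FUBP1, 0.561 in CIC, 1.34 in TRC and 2.98 in GFP, a change of 2.0004 (SE 0.31, limma adjusted p = 0.0033). The summed level of the other calcium-activated pore genes was small, with Kcnma1 at no more than 0.166 FPKM and Kcnu1 at no more than 0.902 FPKM.

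**Figure D3:**
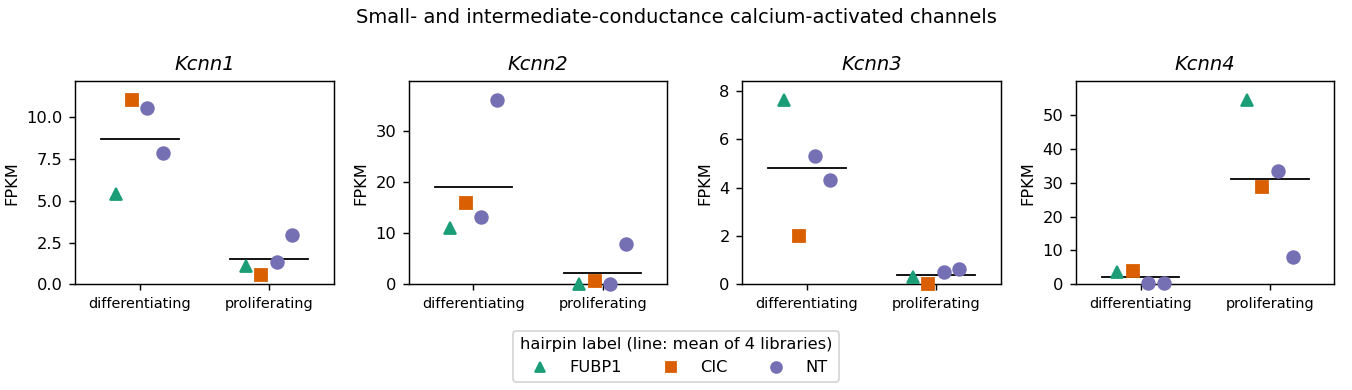
FPKM of the 4 Kcnn genes in the differentiating (left) and proliferating (right) libraries, 1 point per library, with the mean of 4 libraries as a line. Kcnn1, Kcnn2 and Kcnn3 sit higher in the differentiating libraries and Kcnn4 sits higher in the proliferating ones, without overlap in any of the 4.

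Inward rectifiers were led by Kcnj10 (chromosome 1, 174271341 to 174304216), the glial channel known for potassium uptake by astrocytes and oligodendrocytes. It was at 115 FPKM in FUBP1-D, 97.8 in CIC-D, 47.8 in 7 and 93.3 in GFP-D, against 47.3 in FUBP1, 49.6 in CIC, 36.3 in TRC and 37.6 in GFP. The NT library 7 lay inside the proliferating range and the other differentiating libraries lay above it. Kcnj10 rose by 0.97 (SE 0.23, limma adjusted p = 0.015), a call that was lost without FUBP1-D (adjusted p = 0.070), without FUBP1 (0.070) or with a mean per group fitted instead (0.053). Its partner subunit Kcnj16 ranged from 2.35 to 17.3 FPKM and from 3.11 to 9.74 FPKM in the differentiating and proliferating libraries, and Kcnj4 from 0.398 to 7.71 and from 1.65 to 5.61 FPKM. Neither passed the test (estimates 0.17 and 0.14, adjusted p = 0.783 and 0.830 in limma). Kcnj16 was at 17.3 FPKM in FUBP1-D, 3.49 in CIC-D, 10.8 in 7 and 2.35 in GFP-D, against 9.74 in FUBP1, 4.28 in CIC, 7.71 in TRC and 3.11 in GFP, and the states overlapped. Kcnj2, Kcnj12 and Kcnj14, whose highest values were 1.03, 1.18 and 1.39 FPKM, each reached 1 FPKM in a single library and were not tested.

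Two-pore domain channels went both ways. Kcnk2 (chromosome 1, 191031809 to 191168071), a leak channel opened by stretch and fatty acids, was at 25.9 FPKM in FUBP1-D, 15.0 in CIC-D, 24.9 in 7 and 41.8 in GFP-D, against 6.65 in FUBP1, 6.66 in CIC, 12.2 in TRC and 11.4 in GFP. It rose by 1.41 (SE 0.22, limma adjusted p = 0.0036). Kcnk5 (chromosome 14, 20959280 to 21001004), a leak channel sensitive to external pH, was at 0.271 FPKM in FUBP1-D, 0.0125 in CIC-D, 0.0275 in 7 and 0.169 in GFP-D, against 3.63 in FUBP1, 0.936 in CIC, 3.36 in TRC and 1.05 in GFP. Its change was -1.42 (SE 0.30, limma adjusted p = 0.010), with the values of the states apart, but its call was lost without FUBP1-D (adjusted p = 0.051) or FUBP1 (0.051). Kcnk13 ranged from 1.37 to 3.01 FPKM and from 0.214 to 5.46 FPKM in the differentiating and proliferating libraries, with an estimate of 0.26 (adjusted p = 0.714 in limma). Kcnk1 differed by targeted gene and is described below.

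Of the 10 voltage-gated pore genes tested, 4 rose and 1 fell. The faller was Kcnc1 (chromosome 7, 53651838 to 53694074), a fast-closing channel of rapidly firing neurons, at 5.10 FPKM in FUBP1-D, 2.57 in CIC-D, 2.38 in 7 and 2.08 in GFP-D, against 14.3 in FUBP1, 9.49 in CIC, 9.14 in TRC and 14.6 in GFP. Its change was -1.70 (SE 0.22, limma adjusted p = 0.0019). Its relative Kcnc2 was at 1.31 FPKM in FUBP1-D, 1.66 in CIC-D, 1.05 in 7 and 0.865 in GFP-D, against 0.424 in FUBP1, 0.497 in CIC, 0.382 in TRC and 0.362 in GFP, and rose by 0.64 (SE 0.20, limma adjusted p = 0.038).

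Kcnd1 (chromosome X, 7400969 to 7413629), a pore gene of the transient A-type current, was at 2.62 FPKM in FUBP1-D, 4.98 in CIC-D, 3.85 in 7 and 2.80 in GFP-D, against 0.623 in FUBP1, 0.412 in CIC, 0.716 in TRC and 1.15 in GFP. It rose by 1.39 (SE 0.25, limma adjusted p = 0.0055). The states did not overlap in Kcnc1, Kcnc2 or Kcnd1. The call of Kcnc2 was lost in all 8 alternatives that left out 1 library (adjusted p = 0.057 to 0.130), with a pseudocount of 5 (0.055), with quantile normalization (0.313) and with group means (0.112).

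The remaining voltage-gated pore genes varied between libraries more than between states. Kcnq3 was at 5.28 FPKM in CIC-D and 3.46 in 7, against 0.441 in FUBP1-D, 0.152 in GFP-D and no more than 0.510 in any proliferating library. Kcna6 was at 4.63 FPKM in 7 and 1.47 in FUBP1-D, listed at 0 in CIC-D, and at 0.294 in GFP-D, against no more than 0.176 in the proliferating libraries. Neither passed the test (adjusted p = 0.070 and 0.160 in limma). Kcnh2, the pore gene of a rapid cardiac and neuronal rectifier, stayed between 1.02 and 2.97 FPKM in all 8 libraries (estimate 0.082, SE 0.29). Kcnd2 exceeded 1 FPKM in CIC (2.69), Kcnf1 in TRC (1.44), Kcng1 in FUBP1 (4.11) and Kcnq5 in TRC (1.90 FPKM), each in that library alone, and they were not tested. Kcnf1 and Kcng1 belong to the silent subunits, which form channels only together with other pore subunits.

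Among the auxiliary subunits of voltage-gated channels, 1 of 5 rose and 1 fell. Kcnip1 (chromosome 11, 33529341 to 33893193), a calcium sensor that binds Kcnd pore proteins, was at 1.103 FPKM in FUBP1-D, 10.3 in CIC-D, 5.32 in 7 and 11.6 in GFP-D, against 0.245 in FUBP1, 0.892 in CIC, 0.349 in TRC and 0.960 in GFP. FUBP1-D was far below the other differentiating libraries and still above every proliferating one. The gene rose by 2.06 (SE 0.39, limma adjusted p = 0.0066). Its span contains that of Kcnmb1, which peaked at 0.297 FPKM. Kcnab3 (chromosome 11, 69139760 to 69146543), a beta subunit, was at 0.722 FPKM in FUBP1-D, 1.00 in CIC-D, 1.78 in 7 and 2.95 in GFP-D, against 4.35 in FUBP1, 1.80 in CIC, 5.92 in TRC and 5.88 in GFP. CIC lay inside the differentiating range. Its change was -1.06 (SE 0.25, limma adjusted p = 0.015), and the call was lost without FUBP1-D (adjusted p = 0.068) or FUBP1 (0.070).

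Kcnip3, a calcium sensor of the same family that also binds DNA, was at 8.99 FPKM in FUBP1-D, 16.3 in CIC-D, 14.4 in 7 and 5.37 in GFP-D, against 23.3 in FUBP1, 19.9 in CIC, 11.8 in TRC and 11.04 in GFP, with overlapping states (estimate -0.55, SE 0.32, limma adjusted p = 0.1997). Kcnab2, a beta subunit like Kcnab3, was at 3.22 FPKM in FUBP1-D, 4.45 in CIC-D, 4.50 in 7 and 14.3 in GFP-D, against 2.46 in FUBP1, 0.394 in CIC, 3.21 in TRC and 7.25 in GFP (estimate 0.88, SE 0.43, limma adjusted p = 0.140). It was highest in the GFP-named library of each state. Kcnip4 had an estimate of 0.62 (SE 0.22, limma adjusted p = 0.061), with 0.530 to 1.32 FPKM in differentiating and 0.144 to 0.289 FPKM in proliferating libraries.

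**Figure D4:**
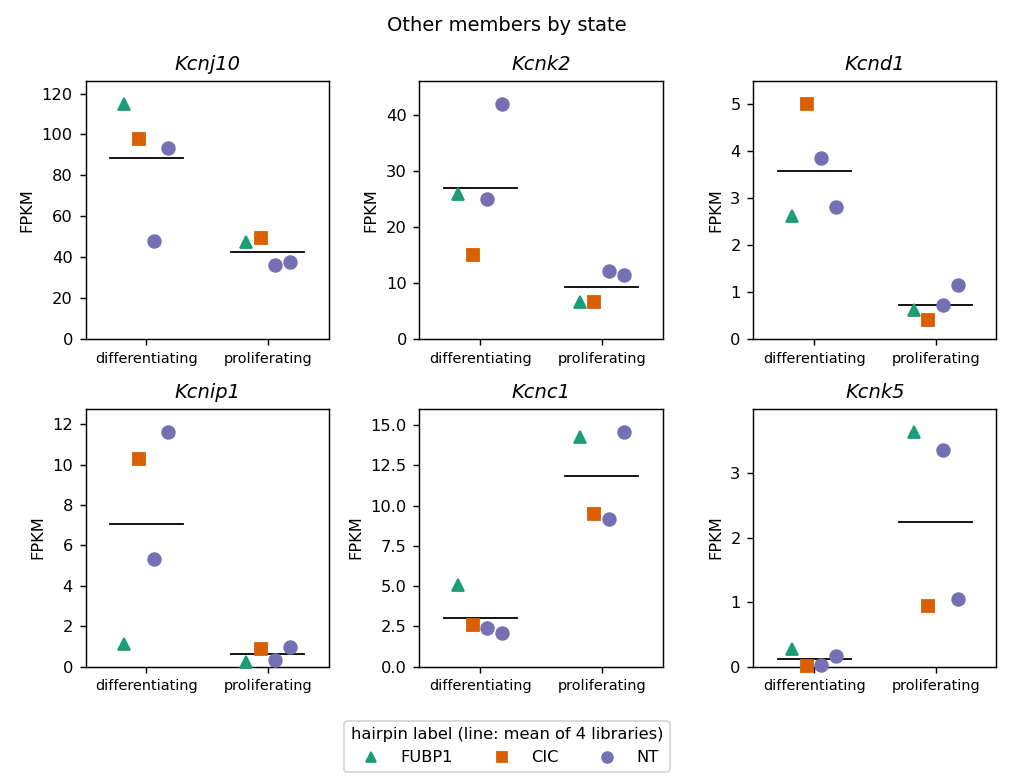
FPKM of 6 further called members in the differentiating (left) and proliferating (right) libraries, 1 point per library, with the mean of 4 libraries as a line. Kcnj10, Kcnk2, Kcnd1 and Kcnip1 have the higher mean in the differentiating state and Kcnc1 and Kcnk5 in the proliferating state, and only Kcnj10 overlaps between states.

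The number of called members was 14 of 27 with all 8 libraries, 9 of 24 (7 higher and 2 lower) without FUBP1-D and 9 of 27 (7 higher and 2 lower) without FUBP1. The called share over all rows fell in the same fits, to 20.9% without FUBP1-D and 21% without FUBP1, against 38.8% with all libraries. The same 8 members were called in every one of the 19 alternatives, namely Kcnn1, Kcnn2, Kcnn3, Kcnn4, Kcnc1, Kcnd1, Kcnk2 and Kcnip1. The other 6, among them Kcnab3, Kcnc2, Kcnj10 and Kcnk5, lost the call in at least 1. The alternatives refit the same 8 libraries or part of them, so they are not independent support. Of the 8 members, Kcnn3 and Kcnip1 were below 1 FPKM in every proliferating library and had to differ to be tested in the main fit.

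Between the NT libraries alone, 2 differentiating against 2 proliferating, no member was called (0 of 27 in limma, group means, 11 at an unadjusted p under 0.05), where 1.46% of all rows were (0.577% higher and 0.886% lower). This comparison uses libraries of the one above. In simulated data it recovered changes of 2 log2 units in 11 of 67 rows, so a count of 0 says little. The members of smallest p were Kcnc1 (2.23 ± 0.212 against 11.8 ± 3.84 FPKM, SD, n = 2 each, change -1.96, SE 0.34, limma adjusted p = 0.059), Kcnn4 (0.425 ± 0.0526 against 20.8 ± 17.9 FPKM, change -3.64, SE 0.65, limma adjusted p = 0.061) and Kcnn3 (4.82 ± 0.699 against 0.590 ± 0.0852 FPKM, change 1.87, SE 0.34, limma adjusted p = 0.061), each with differentiating values first. Without GFP, which leaves 1 proliferating NT library, the Kcnn4 change was -4.60.

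Other potassium-handling genes were taken from lists of pumps, cotransporters, partner proteins and cyclic nucleotide-gated channels. Of the 6 tested sodium-potassium pump genes, 3 rose and 1 fell, with a median change of 1.47. Over all rows the median was 0.088, with 21.2% called higher and 17.7% called lower, against which the counts of these lists are to be read. The beta subunit Atp1b2 was at 294, 400.4, 375 and 288 FPKM in FUBP1-D, CIC-D, 7 and GFP-D, against 59.4, 129, 20.6 and 89.7 FPKM in FUBP1, CIC, TRC and GFP (change 2.43, SE 0.45, limma adjusted p = 0.0063). Fxyd1, a pump regulator, rose (change 2.65, SE 0.40, limma adjusted p = 0.0030), at 2.503 to 12.1 FPKM in the differentiating libraries and listed at 0 in all 4 proliferating ones. Fxyd1 passed the filter only through the differentiating libraries, so it had to differ to be tested and its rise is a description. Atp1b3 fell (change -1.07, SE 0.15, limma adjusted p = 0.0025).

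Potassium-chloride cotransport genes rose in 4 of 8 tested members and fell in none (median 0.50, against 0.088 over all rows, where 38.8% were called and 21.2% were higher), among them Slc12a5, the neuronal chloride exporter (3.15 to 15.1 FPKM in differentiating, against 0.539 to 1.86 FPKM in proliferating libraries), with Slc12a4 and Slc12a7. In the list of partner and anchoring proteins, 4 of 9 rose and 0 fell (median 1.00), where again 21.2% of all rows rose, among them the water channel Aqp4 and Dag1 and Dmd of the dystrophin complex, which holds Kcnj10 at astrocyte endfeet. Aqp4 was at 72.0 to 258 FPKM in differentiating libraries, against 1.17 to 13.3 FPKM in proliferating ones. The subunits Abcc8 and Abcc9, which pair with inward rectifiers, and Dpp6 and Dpp10, which pair with Kcnd pores, were below 1 FPKM in every library. Of the cyclic nucleotide-gated and HCN list, 3 were tested and 0 were called. No gene of these 4 lists was called with the CIC or the FUBP1 label, where 0.109% and 0% of all rows were.

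The second comparison set the libraries labelled CIC against the NT libraries over both states. No member passed the test (0 of 27, 6 at an unadjusted p under 0.05), where 0.109% of all rows were called (0.0167% higher and 0.0919% lower). The member of smallest p was Kcnk1 (chromosome 8, 128519002 to 128554585), a weakly conducting two-pore domain channel abundant in brain. It was at 0.188 FPKM in CIC-D, against 8.77 in 7 and 22.8 in GFP-D, and at 0.355 FPKM in CIC, against 32.6 in TRC and 7.85 in GFP. Both libraries labelled CIC were thus far below all other libraries, and the FUBP1 libraries (22.6 FPKM in FUBP1-D and 18.2 in FUBP1) lay inside the NT range. The difference was -3.68 (SE 0.56, limma adjusted p = 0.108). Over 18 alternatives the adjusted p ranged from 0.018 to 0.665. It passed the threshold with a pseudocount of 0.1, where the difference was -5.39, and in a fit with libraries paired across states (adjusted p = 0.0498).

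Kcnab3 averaged 1.40 ± 0.568 FPKM with the CIC label and 4.13 ± 2.097 FPKM in NT (SD over both states, n = 2 and 4), an estimate of -1.01 (SE 0.30, limma adjusted p = 0.326). Kcnk2 averaged 10.8 ± 5.87 and 22.6 ± 14.3 FPKM in the same order, an estimate of -0.90 (SE 0.27, limma adjusted p = 0.328). In both genes the library labelled CIC was below both NT libraries of its state. In Kcnab3 the library labelled FUBP1 was so too in each state. In Kcnk2 this held for FUBP1 (6.65 FPKM, against 12.2 in TRC and 11.4 in GFP) but not for FUBP1-D. Each SD includes the difference between states.

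In the third comparison, of the libraries labelled FUBP1 with the NT libraries, no member was called either (0 of 27, 3 at an unadjusted p under 0.05), and 0% of all rows were. Kcnn4 was at 3.80 FPKM in FUBP1-D, against 0.388 in 7 and 0.463 in GFP-D, and at 54.5 FPKM in FUBP1, against 33.5 in TRC and 8.11 in GFP (estimate 1.70, SE 0.51, limma adjusted p = 0.999). Kcnmb4 (chromosome 10, 115854924 to 115910579), which slows BK channel opening, was at 22.4 FPKM in FUBP1-D, against 7.86 in 7 and 5.54 in GFP-D, and at 21.0 FPKM in FUBP1, against 4.35 in TRC and 1.18 in GFP (estimate 2.16, SE 0.80, limma adjusted p = 0.999). Kcnip1 had an estimate of -1.24 (SE 0.47, limma adjusted p = 0.999). In Kcnn4 and Kcnmb4 the library labelled FUBP1 was above both NT libraries of its state, and in Kcnip1 below both.

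Whether a hairpin effect differed between states was tested with group means, and no member was called for CIC (0 of 27, 2 at an unadjusted p under 0.05) or for FUBP1 (0 of 27, 1 at an unadjusted p under 0.05), nor was any other row (0%). Simulated differences of 4 log2 units between states were recovered in 0 of 66 rows for either label, so a count of 0 is uninformative here. Kcnmb4 had the smallest p for CIC: it was at 2.68 FPKM in CIC-D, against 7.86 in 7 and 5.54 in GFP-D, but at 23.2 FPKM in CIC, against 4.35 in TRC and 1.18 in GFP (difference of the effects -3.88, SE 0.87, limma adjusted p = 0.998). Kcnd3 (chromosome 3, 105255248 to 105476920), a relative of Kcnd1, was at 5.07 FPKM in FUBP1-D, 3.72 in CIC-D, 8.13 in 7 and 6.84 in GFP-D, against 16.9 in FUBP1, 11.1 in CIC, 6.96 in TRC and 3.52 in GFP. Both targeted libraries lay below both NT libraries when differentiating and above both when proliferating. The differences of the effects were -1.85 for CIC (SE 0.66, limma adjusted p = 0.998) and -2.06 for FUBP1 (SE 0.66, limma adjusted p = 0.9995). Kcnn1 for CIC (1.22, SE 0.69) and Kcnip1 for FUBP1 (-1.70, SE 0.81) had no smaller p than these.

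**Figure D5:**
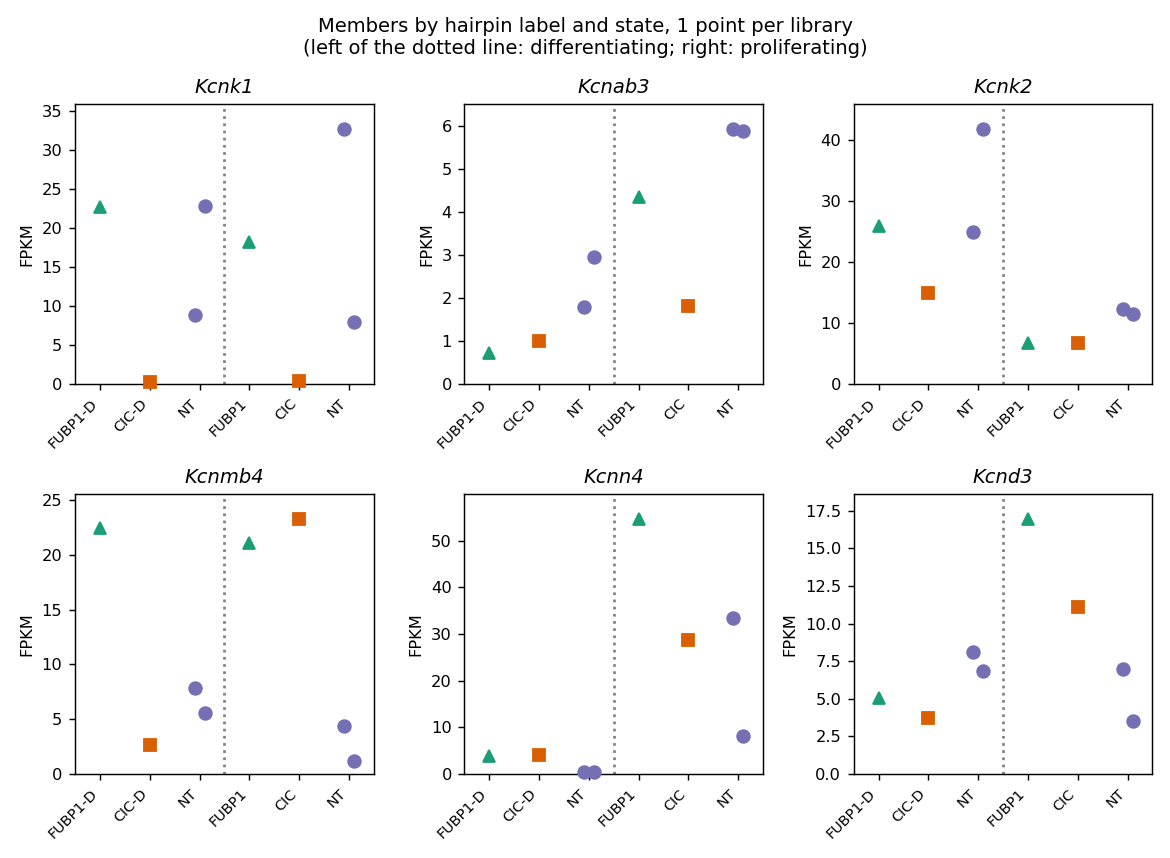
FPKM of 6 members by hairpin label, differentiating left and proliferating right of the dotted line, 1 point per library and 2 for NT. Kcnk1 lies near 0 in both CIC libraries (0.188 and 0.355 FPKM), and Kcnmb4 is above NT in FUBP1-D, FUBP1 and CIC but not in CIC-D.

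Set as single libraries against both NT libraries of their state, without a test, few of the 34 members differed by more than 1 log2 unit from both. CIC-D was above both in 1 member, Kcnn4 (4.03 FPKM), and below both in 1, Kcnk1, where 1.14% and 1.7% of 12385 rows were. CIC was above both in 2 members, Kcnd2 (2.69 FPKM, against 0.244 in TRC and 0.0314 in GFP) and Kcnmb4, and below both in 3, Kcnk1, Kcnab2 and Kcnab3, where 3.75% and 5.46% of rows were. FUBP1-D was above both in 2, Kcnn4 and Kcnmb4, and below both in 2, Kcnip1 and Kcnj4 (0.398 FPKM, against 3.12 in 7 and 3.46 in GFP-D), where 1.31% and 0.735% of rows were. FUBP1 was above both in 3, Kcnmb4, Kcnd3 and Kcng1 (4.11 FPKM, against 0.393 in TRC and 0.186 in GFP), where 1.06% of rows were, and below both in 0, where 0.121% were. Kcnn4 was above both NT libraries in FUBP1-D and in CIC-D alike.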

How the data were processed

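RNA from 8 libraries of mouse neural progenitors was measured by sequencing (total RNA, TruSeq libraries). The authors deposited 1 table of FPKM values, 1 per gene row and library. TopHat2 2.0.11, Cufflinks 2.1.1, cutadapt and bcl2fastq 2.17 are named, with build mm9, per the submitters' processing notes. Settings, annotation and use of strand: not given in the sources used here. The table gives no fragment counts, so depth and counting error are unknown. Starts in the table count from 0 and are printed from 1.

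From the deposited FPKM, log2(FPKM + 1) was computed for the 11968 rows that reached 1 FPKM in 2 libraries or more. The limma package (3.58.1, under R 4.3.3) fitted state and hairpin label as additive terms, with its trended empirical Bayes variance, two-sided tests and Benjamini-Hochberg adjustment over all rows (threshold 0.05), with 4 residual degrees of freedom. For NT libraries alone and for differences of hairpin effects between states it fitted 6 group means, with 2 residual degrees of freedom, where a lone library is taken to vary as NT libraries do. Changes on this scale are smaller than true fold changes at low levels. The fit was tested on simulated data, with changes set only in rows whose mean log2(FPKM + 1) was above 4. For differentiation, changes of 1 and 2 log2 units were recovered in 27 of 67 and 63 of 67 rows. For NT libraries alone they were recovered in 0 of 67 and 11 of 67 rows. Most members lie at lower levels, where recovery was not simulated. Libraries sharing a name across states were not paired, except in alternatives.

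Members, gene lists and tests were chosen with earlier results of these data known. Described members are named except some that are not reported here, which stay in the counts and fits; values in every library are given for called members and those reaching 10 FPKM, and fits for called members or, where none was called, the 3 of smallest p, with a few neighbouring members added after their values were seen. Alternatives were other pseudocounts (0.1 and 5), filters, scalings, no trend, group means, pairing, and leaving out libraries. Protein sequences were not used here.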

Additional observations from a re-analysis of the deposited data

Results flagged for a closer look

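Over the 34 described members, each state's 4 libraries were screened for a library whose distance to its nearest neighbour exceeded Dixon's 95% critical value for 4 samples as a share of the state's range. In samples of 1 normal distribution, chance gives this in about 1 in 20 groups, and 6 of 68 met it here. Whether that rate holds for untransformed FPKM of libraries with mixed hairpin labels was not tested. Kcnn2 in GFP (7.83 FPKM) and Kcnj4 in GFP (5.61 FPKM) stood above the other proliferating libraries, which ranged from 0.0614 to 0.696 and from 1.65 to 1.96 FPKM. Kcng1 in FUBP1 (4.11 FPKM, others up to 0.393) and Kcnq3 in CIC (0.510 FPKM, others up to 0.0624) did so in the same state. Among the differentiating libraries, Kcnab2 in GFP-D (14.3 FPKM, others 3.22 to 4.50) and Kcnc1 in FUBP1-D (5.10 FPKM, others 2.08 to 2.57) stood above the rest. Of the 6 values, 3 belong to a library named GFP or GFP-D.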

How the results depend on the processing

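None of the 14 members called with differentiation changed direction in any alternative, while 7 that were not called, among them Kcnh2, Kcnj4, Kcnj16, Kcnk1, Kcnk13 and Kcnmb4, changed sign in at least 1. The count of 14 members called with differentiation was 9 to 14 when 1 library was left out, with 9 without FUBP1 and 9 without FUBP1-D. It was 10 with group means (2906 of 11968 rows called) and 11 with quantile normalization (4255 of 11968). With pseudocounts of 0.1 and 5 it was 16 and 12 (4657 and 4490 of 11968 rows). A filter of 1 FPKM in any library gave 14 of 34 members (4651 of 12385 rows). No filter on low values gave 17 of 88 members (4247 of 16724 rows). Without both libraries named GFP, an alternative chosen after seeing the data, it was 13 (4323 of 11800 rows). The main fit called 4647 of 11968 rows, so the member counts are to be read against these. For NT libraries alone, 0 members were called (175 of 11968 rows). With a pseudocount of 0.1, 1 was called (Kcnn4, where 253 of 11968 rows were), and with quantile normalization 1 (Kcnc1, where 277 of 11968 rows were). Leaving out a library labelled CIC or FUBP1 gave 0. Leaving out an NT library leaves 1 NT library in that state, so the counts of those fits are not given. For CIC, 1 member (Kcnk1) was called with a pseudocount of 0.1 (35 of 11968 rows, against 13 in the main fit), and leaving out a library gave 0. For FUBP1 and for differences between states the count was 0 throughout. The cause of these changes was not tested. The labels give no replicate numbers, but FUBP1, CIC and GFP libraries share a name across states, so fits with a replicate block were added after seeing the data. With those 3 pairs alone, 12 of 23 members were called with differentiation (30.1% of all rows). With 7 and TRC as a further pair, which no label states, the block gave 16 of 27 with differentiation (42.8% of all rows). Within NT it gave 5 (Kcnn4, Kcnc1 and Kcnn3 among them, 1 residual degree of freedom), where 879 of 11968 rows were called. It gave 1 for CIC (Kcnk1), where 92 of 11968 rows were called, 0 for FUBP1 and 0 for differences between states. The deviations of GFP-D and GFP from their NT means correlated over rows (r = 0.347), rows not being independent replicates. Unknown depth limits statements on low values.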

Other observations

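The NT libraries of a state differed from each other by more than 1 log2 unit in 9 of 34 members when proliferating (GFP above TRC in 3 and below it in 6) and in 7 of 34 when differentiating (GFP-D above 7 in 3 and below it in 4). Kcnk13, a leak channel highest in microglia in the adult brain, was at 5.46 FPKM in GFP and 0.214 in TRC. Of the 7 microglia markers, Cd68 was also higher in GFP (7.14 FPKM) than in TRC (0.939), P2ry12 was lower in GFP (0.542) than in TRC (1.62), and Aif1, Csf1r, Cx3cr1, Itgam and Tmem119 were below 1 FPKM in every library. The part of these markers in the Kcnk13 values was not tested. Kcnk1 was at 32.6 FPKM in TRC and 7.85 in GFP, while in the differentiating state it was at 22.8 FPKM in GFP-D and 8.77 in 7.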
